A study of Macaca mulatta with 6 samples.

Results

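DBP, TEF and HLF are the 3 PAR bZIP transcription factors, and NFIL3 (also called E4BP4) is the repressor that shares their binding sites. All probe sets whose platform annotation names one of these 4 genes were taken, which gave 9 of the 22283 probe sets on the array: 2 for DBP, 3 for TEF, 3 for HLF and 1 for NFIL3. Each of the 9 names its gene alone. The probe sets were picked by gene name, and the 4 genes were chosen with earlier results of these data known.

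PAR bZIP proteins carry a basic leucine zipper, which binds DNA as a dimer, next to a domain rich in proline and acidic residues. They activate genes through D-box elements, while NFIL3 lacks that domain and represses through the same elements. In mice DBP is transcribed through E-boxes bound by BMAL1 and CLOCK, and NFIL3 through elements on which REV-ERB repressors and ROR activators compete, so the activators and the repressor run in opposite phases in mouse tissues. Through D-boxes these factors carry clock time to other genes, among them genes of detoxification in mouse liver.

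The samples were left adrenal glands of 6 ovariectomized female rhesus macaques, a single animal for each of the clock times 3 AM, 7 AM, 11 AM, 3 PM, 7 PM and 11 PM, and each RNA was hybridised to 1 Affymetrix array with human probes. All animals had lived for 3 months at constant temperature in a cycle of 12 h light and 12 h dark, with 2 meals a day, and had been fasted for 12 h. No untreated or intact animals are among the samples used here, the hour at which the lights came on is not known here, and no clock time has a second animal. The animals at 3 AM and 7 AM were 12 years old, and the others were 10 years and 37 days (11 AM), 8 years and 106 days (3 PM), 7 years and 82 days (7 PM) and 8 years and 70 days (11 PM). Age itself followed a 24-h cosine with a peak at 6.23 h (R2 = 0.947), so age and clock time can hardly be told apart in this design.

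HLF and TEF signals were high in the early morning and lowest at 7 PM, and NFIL3 ran the other way, with its highest signal at 3 PM and its lowest at 7 AM. DBP was highest at 7 AM too, but its lowest signal was at 11 AM, and it did not pass the test. The test fitted a 24-h cosine to log2(intensity + 1) of every probe set at or above the median level, 11108 in all, with limma's moderated F test. Of the 5 DBP, TEF, HLF and NFIL3 probe sets that reached this level, 3 passed an unadjusted p of 0.05, against a background of 5.44% of all probe sets tested. After Benjamini-Hochberg adjustment 0 of the 5 passed, as did 0 of all 11108 (background 0%), and by the ordinary F test without moderation 0 of the 5 passed even the unadjusted threshold. The other 4 of the 9 lay below the median level and are described without a call.

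**Figure D1:**
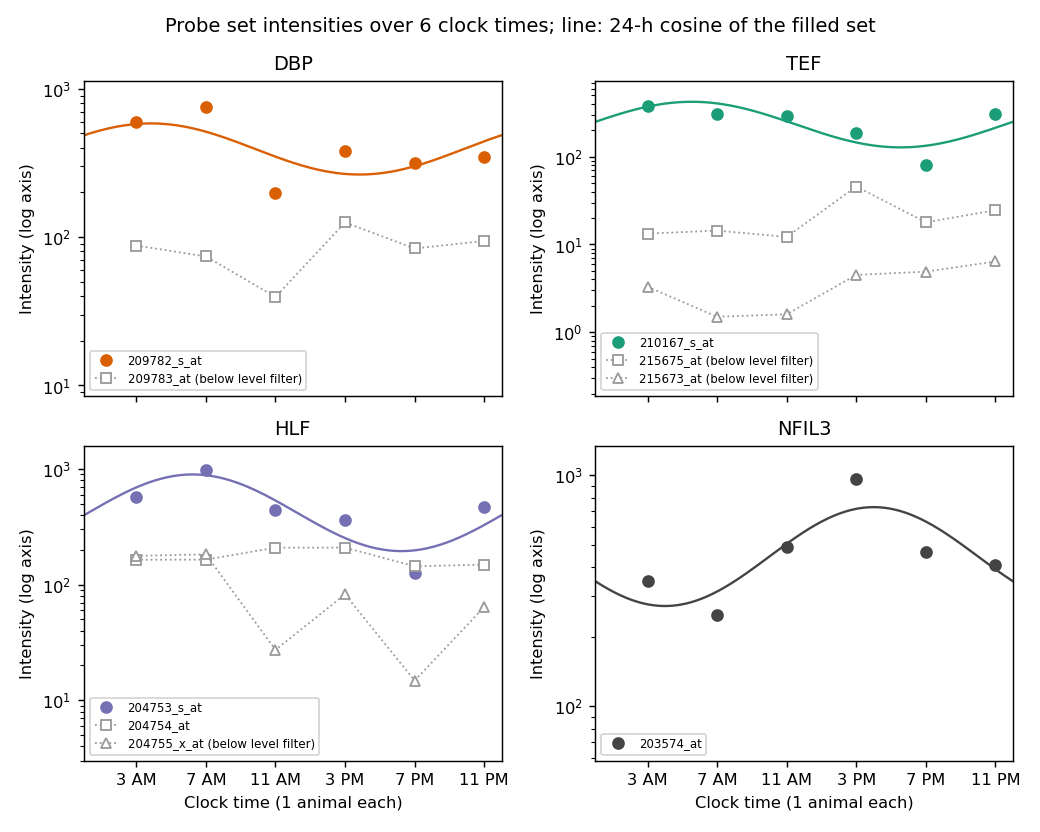
Intensity (log axis) of each of the 9 probe sets against clock time, 1 animal and 1 array per point, in a panel per gene. Filled points mark the probe set with the highest mean of each gene and the line its 24-h cosine; open points joined by dots mark the other probe sets. HLF and TEF dip at 7 PM, DBP at 11 AM, and NFIL3 stands highest at 3 PM.

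HLF, first known in humans as a partner in a leukaemia fusion gene, had the largest difference of the tested members. On probe set 204753_s_at its intensities were 571.0 at 3 AM, 985.0 at 7 AM, 440.2 at 11 AM, 364.7 at 3 PM, 125.8 at 7 PM and 473.2 at 11 PM. The 7 AM value thus stood alone at the top and the 7 PM value alone at the bottom, 7.83 times apart, with the 4 remaining animals between 364.7 and 571.0. The fitted peak, given as a clock hour counted from midnight, was at 6.24 ± 0.90 h (SE), and the fitted peak was 4.58 times the trough (log2 2.20 ± 0.52, SE). Its unadjusted p was 0.0102 and its adjusted p 0.866 by limma's moderated F test, and 0.432% of all probe sets tested had a larger fitted difference. An exact test compared the R2 of the curve with that of all 60 circular orders of the 6 arrays, where p cannot go below 0.0167. HLF had an exact p = 0.05 for its R2 of 0.757. Of the 5 steps between neighbours in the order of levels, 2 exceeded log2 0.64: from 7 AM to 3 AM, and from 3 PM to 7 PM. That value is the SD of a difference between 2 arrays, derived from the moderated residual SD of the cosine fit. Moderation, which borrows from other probe sets, had lowered the residual SD of HLF from 0.62 to 0.45. A spread between animals at the same clock time could not be measured. In whole-gland RNA, fewer cells of a type and less RNA per cell cannot be told apart.

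The other HLF probe sets did not share this profile in full. Probe set 204754_at had 164.3, 164.6, 208.9, 209.1, 144.2 and 148.9 from 3 AM to 11 PM, so its highest and lowest arrays were 1.45 times apart. It too was lowest at 7 PM, but its fitted peak lay at 11.7 ± 2.08 h, with a log2 peak-to-trough difference of 0.51 ± 0.28 (SE, unadjusted p = 0.249, limma). Of all probe sets tested, 77.6% had a wider observed range. Probe set 204755_x_at, whose suffix marks probes that can bind related sequences, had 177.6, 182.7, 27.3, 82.4, 14.8 and 64.1 in the same order. It lay below the level filter, yet had its highest and lowest values at 7 AM and 7 PM like 204753_s_at. Its fit without the filter peaked at 5.02 h with a log2 difference of 2.68 ± 1.11 (SE), which was 4.52 without the 3 PM array and 1.75 without the 7 PM array.

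TEF, named for its activation of the thyrotropin beta gene in the pituitary, was carried by probe set 210167_s_at. Its intensities were 378.2 at 3 AM, 309.1 at 7 AM, 292.4 at 11 AM, 186.5 at 3 PM, 80.3 at 7 PM and 311.4 at 11 PM. From 11 PM to 11 AM the 4 animals lay close together, and the 7 PM animal made up most of the variation. Its log2 value less the mean was -1.53, against -0.32 at 3 PM. The fitted peak was at 5.55 ± 1.15 h and 3.29 times the trough (log2 1.72 ± 0.52, SE, unadjusted p = 0.0331, adjusted p = 0.866, limma). The exact order test gave p = 0.167. Steps between neighbouring levels exceeded the SD of a difference (log2 0.63) from 11 AM to 3 PM and from 3 PM to 7 PM, and none did among the 4 higher animals. Here too moderation had lowered the residual SD, from 0.62 to 0.45.

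The 2 further TEF probe sets were dim. Probe set 215675_at had 13.3, 14.4, 12.2, 45.8, 17.9 and 24.6 from 3 AM to 11 PM, and 215673_at had 3.3, 1.5, 1.6, 4.5, 4.9 and 6.4. Both were higher from 3 PM on than from 3 AM to 11 AM, whereas 210167_s_at had its lowest values at 3 PM and 7 PM. Their fits without the level filter peaked at 17.5 h and 20.6 h. The second had an unadjusted p of 0.0144 there, but at intensities this low the pseudocount decides the size: with 16 in place of 1 its log2 difference was 0.35, against 1.59, and the p was 0.461.

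DBP, the albumin D-box binding protein for which the element is named, was read by probe set 209782_s_at. It gave 596.2 at 3 AM, 748.3 at 7 AM, 197.0 at 11 AM, 380.5 at 3 PM, 316.4 at 7 PM and 346.4 at 11 PM. The early morning animals were high, and the 11 AM animal lay below the 3 later ones. The fitted peak at 3.83 ± 1.85 h was 2.21 times the trough (log2 1.14 ± 0.55, SE), and the fit did not pass (unadjusted p = 0.184, adjusted p = 0.873, limma; exact order p = 0.467). Without the 11 AM array the peak moved to 7.31 h with a log2 difference of 1.32 ± 0.33 and an unadjusted p of 0.0127. The log2 difference was 1.81 without the 3 PM array. The second DBP probe set, 209783_at, had 87.7, 74.1, 39.5, 125.5, 83.8 and 94.2 and lay below the level filter. It was lowest at 11 AM as well, so both DBP probe sets had their minimum in the same animal, but its maximum was at 3 PM and not at 7 AM.

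NFIL3, the repressor, was on 1 probe set, 203574_at, with 347.3 at 3 AM, 248.8 at 7 AM, 491.0 at 11 AM, 962.5 at 3 PM, 466.9 at 7 PM and 407.7 at 11 PM. The 3 PM animal stood apart, and the lowest animal was the one in which HLF and DBP were highest. The fitted peak was at 16 ± 1.11 h, and 2.67 times the trough (log2 1.42 ± 0.41, SE, unadjusted p = 0.0283, adjusted p = 0.866, limma; exact order p = 0.0833). Of the 5 steps between neighbouring levels, 1 exceeded the SD of a difference (log2 0.50), that from 3 PM to 11 AM. Without the 3 PM array the log2 difference was 0.88 and the unadjusted p 0.191.

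The number of arrays limits the precision, and leaving out single arrays ended each of the 3 calls. HLF did not pass the unadjusted threshold without the 7 AM array (log2 1.99, unadjusted p = 0.0697, limma) or without the 7 PM array (1.36, unadjusted p = 0.0664). TEF did not pass without 3 AM (1.70, unadjusted p = 0.103) or without 7 PM (0.89, unadjusted p = 0.0948). NFIL3 did not pass without 7 AM (1.15, unadjusted p = 0.0721) or without 3 PM. With age as a covariate HLF, TEF and NFIL3 all missed the threshold, at unadjusted p = 0.353, 0.426 and 0.119, while their log2 differences were larger, at 3.69, 3.03 and 2.92. The standard error of the HLF difference was then 2.35 on the log2 scale.

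**Figure D2:**
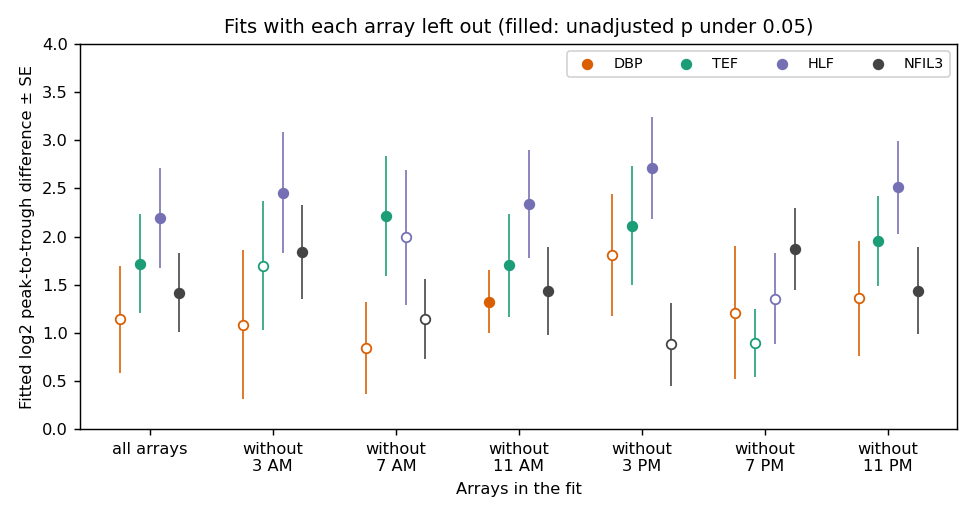
Fitted log2 peak-to-trough difference (points, with SE as bars) for the probe set of highest mean of each gene, with all 6 arrays and with each array left out. Filled points have an unadjusted p under 0.05 by limma's moderated F test; HLF is open without 7 AM and without 7 PM, and DBP is filled only without 11 AM.

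A straight line on age gave an R2 of 0.664 for HLF (cosine 0.757), 0.554 for TEF (cosine 0.660), 0.362 for DBP (cosine 0.418) and 0.404 for NFIL3 (cosine 0.718), where the cosine has 1 more term. Among the animals at 3 PM, 7 PM and 11 PM, which were between 7 years and 82 days and 8 years and 106 days old, HLF was 364.7, 125.8 and 473.2, TEF 186.5, 80.3 and 311.4, DBP 380.5, 316.4 and 346.4, and NFIL3 962.5, 466.9 and 407.7. The 7 PM animal, with the lowest HLF and TEF, was also the youngest of the 6. In the animals at 3 AM and 7 AM, both 12 years old, HLF was 571.0 and 985.0, TEF 378.2 and 309.1, DBP 596.2 and 748.3, and NFIL3 347.3 and 248.8. These are single animals, and the part of age in the fitted curves was not tested beyond the covariate fit.

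Activators and repressor were also set against each other within each array, as log2 of the activator minus log2 of NFIL3, less the mean of that difference over the 6 arrays. For HLF this was 0.80 at 3 AM, 2.07 at 7 AM, -0.07 at 11 AM, -1.31 at 3 PM, -1.80 at 7 PM and 0.30 at 11 PM. The relative signal of HLF over NFIL3 thus spanned 14.6-fold, between 7 AM and 7 PM. For TEF it was 1.05, 1.24, 0.19, -1.43, -1.59 and 0.54 in the same order, a span of 7.14-fold with the same highest and lowest times. For DBP it was 0.96, 1.77, -1.13, -1.16, -0.38 and -0.05, a span of 7.58-fold between 7 AM and 3 PM. All 3 differences lay above their means at 3 AM and 7 AM and below them at 3 PM and 7 PM. These values were not tested, and they share the NFIL3 signal, so the 3 courses are not independent.

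**Figure D3:**
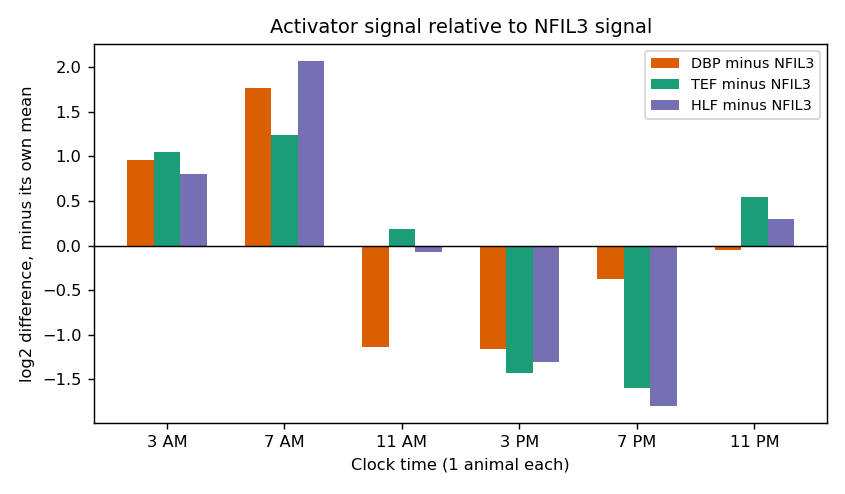
Bars give log2 DBP, TEF or HLF signal minus log2 NFIL3 signal on the same array, less the mean of that difference over the 6 clock times. Bars stand above 0 at 3 AM and 7 AM for all 3 activators and below 0 at 3 PM and 7 PM, with the widest span in HLF, from 2.07 to -1.80.

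As a background to the arrays on which the members were highest or lowest, of all probe sets tested, 15.6% were lowest at 7 PM, 12.7% lowest at 11 AM, 21.5% lowest at 7 AM, 17.8% highest at 3 AM, 16.6% highest at 7 AM and 19.1% highest at 3 PM. The hybridisation controls, read on 18 probe sets, averaged (geometric mean) 542 on the 3 AM array and 669 on the 3 PM array. The remaining 4 arrays gave 948 to 1101. The amounts in which these controls were added are not known here. Without both of those arrays the log2 difference of HLF was 3.48 with its peak at 4.89 h (unadjusted p = 0.0021, adjusted p = 0.766, limma). HLF was then past the unadjusted threshold, while TEF (2.28, unadjusted p = 0.0885) and NFIL3 (1.23, unadjusted p = 0.163) were not. These fits held only 4 arrays, and 3.96 of their 4.96 degrees of freedom came from moderation, not from the animals' own scatter.

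Markers of the gland's cell types varied between the same animals. Of 8 cortex markers, 7 were read on single-gene probe sets, all above the level filter, and no measured marker of any list was at 0. The summed intensity of the cortex markers ran between 54375 at 3 AM and 81868 at 7 PM, where HLF and TEF were lowest. CYP11A1, CYP17A1 and HSD3B2 were highest at 7 PM, while STAR, CYP11B1 and NR5A1 were highest at 11 PM and MC2R at 7 AM. The 6 measured chromaffin markers (of 7 listed) summed to 34754 at 7 AM, where HLF and DBP were highest, and 13777 at 3 AM, where TEF was highest. TH, PNMT, CHGA and CHGB were highest at 7 AM, but DBH and SLC18A1 were highest at 3 PM. CHGA and SLC18A1 were lowest at 11 PM, and the others at 3 AM. Lymphocyte markers (6 of 6 measured) summed to between 935 and 1306, and the T-cell genes CD3D and CD2 were highest at 3 PM, as was NFIL3, while the T-cell gene CD3E, below the level filter, had 91.9 at 3 PM and was highest at 7 PM (262.6). NFIL3 is a gene that natural killer cells need in mice. The natural killer cell marker NKG7 had a mean intensity of 4.68, below the level filter. A human probe set this dim on macaque RNA cannot tell whether such cells were present. Adipocyte markers (4 of 4) summed to 3699 at 3 AM, 1284 at 7 AM and 1269 at 3 PM. LPL was lowest at 3 PM, while FABP4, ADIPOQ and PLIN1 were lowest at 7 AM. Macrophage markers (3 of 4) summed to 1052 at 7 AM and 649 at 7 PM, but the genes did not share this course. CD163 was highest at 7 AM and lowest at 3 AM, CD14 highest at 11 AM and lowest at 11 PM. CSF1R was highest at 11 PM and lowest at 7 PM. Smooth muscle markers (5 of 5) summed to 7448 at 7 PM, where HLF and TEF were lowest, and 2759 at 11 PM. ACTA2, TAGLN and DES were highest at 7 PM, but MYH11 and CNN1 were highest at 3 AM. TAGLN had 3963.0 at 7 PM against 1905.7 at 3 AM, and ACTA2 1498.1 against 1462.7. Endothelial markers (5 of 5) summed to 2206 at 3 AM and 1121 at 11 PM, and kidney markers (2 of 4) to 572 at 3 PM and 362 at 11 AM. The endothelial sum at 3 AM came from VWF, at 1086.7 there and at most 281.4 elsewhere. PECAM1 and KDR were highest at 3 PM, and CDH5 and TEK at 7 PM. Of the 30 tested markers 3 (10.0%, background 5.44%) passed the unadjusted threshold of the same limma fit, the vesicular amine transporter gene SLC18A1, CD2 and the lipase gene LPL. The part of cell makeup in the results was not tested.

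The clock loop that drives these factors was read from 16 listed genes, of which 13 had a probe set naming them alone and 10 were tested; PER1 and NR1D1 are named only together with other genes and were not used. Of the 10, 6 passed the unadjusted threshold by limma's moderated F test, 4 with a peak between 0 and 12 h (background 2.81% of all tested) and 2 with a peak between 12 and 24 h (background 2.63%); by the ordinary F test 5 passed, and after adjustment 0. The list's median log2 peak-to-trough difference was 1.47, against 0.44 over all probe sets tested. HLF and TEF peaked in the same part of the day as the repressors BHLHE40 (5.62 h), BHLHE41 (6.83 h) and PER2 (8.47 h) and the REV-ERB gene NR1D2 (5.80 h). All 4 of these, HLF and TEF were lowest in the 7 PM animal, with NR1D2 at 147.2 and PER2 at 196.1. The activators BMAL1 and NPAS2 were highest there, at 1838.0 and 1714.3. NFIL3, at 16 h, lay closest in phase to BMAL1, at 17.4 h. CLOCK, RORA, RORB and CRY1 did not pass, with log2 differences of 0.41, 0.60, 0.77 and 1.57. These genes were read in the same 6 animals, so their profiles are not independent of one another.

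**Figure D4:**
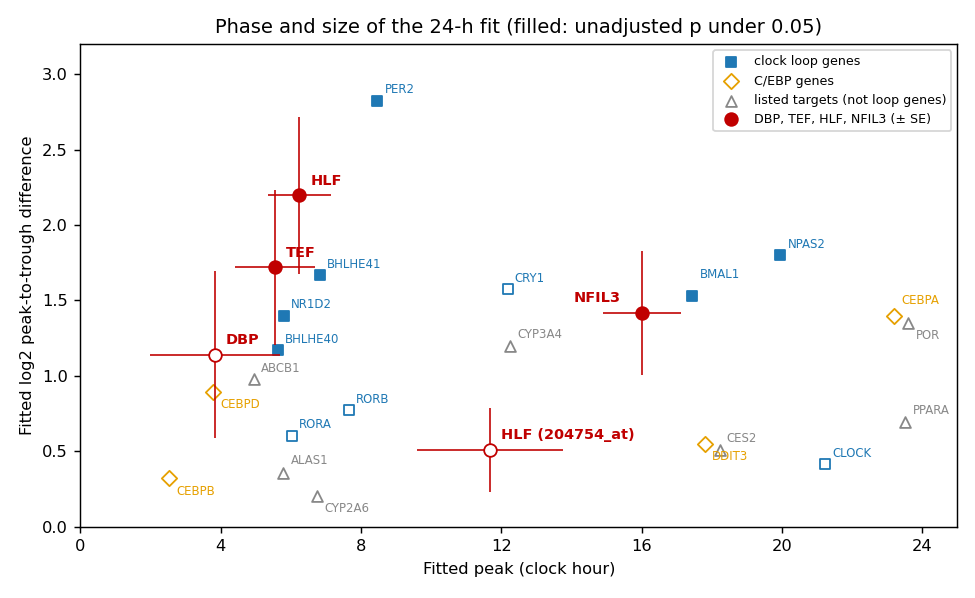
Fitted log2 peak-to-trough difference against fitted peak hour for the tested DBP, TEF, HLF and NFIL3 probe sets (circles, bars are SE), clock loop genes (squares), C/EBP genes (diamonds) and listed target genes (triangles). Filled symbols have an unadjusted p under 0.05; HLF and TEF lie beside NR1D2, BHLHE40 and BHLHE41, NFIL3 beside BMAL1, and no C/EBP gene is filled.

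C/EBP factors are bZIP relatives that can bind D-box-like sequences. Of 6 listed, 4 were tested, and 0 passed by limma's moderated F test, unadjusted or adjusted, or by the ordinary F test; with a background of 5.44%, a count of 0 among 4 says nothing particular about them. The largest fitted difference belonged to CEBPA, a regulator of metabolic genes, at log2 1.40 ± 0.53 (SE) with a peak at 23.2 h and an unadjusted p of 0.0856. CEBPD, induced in inflammation and by glucocorticoids, followed at 0.90 ± 0.34 (3.78 h, unadjusted p = 0.0843), and CEBPB (0.32) and the stress-induced DDIT3 (0.55) were smaller. CEBPB, at a mean intensity of 8528, and CEBPD were highest at 11 PM and lowest at 7 PM.

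Genes known as targets of PAR bZIP factors or NFIL3, mostly from mouse liver and brain, were also read. Of 17 listed, 14 had a single-gene probe set and 10 were tested; 1 passed the unadjusted threshold (background 5.44%), PER2, which is on the clock loop list as well. Of the 7 tested targets outside the loop, too few to read against that background, 0 passed by limma's moderated F test, unadjusted or adjusted, or by the ordinary F test, and their median log2 difference was 0.70. Nearest to the threshold was ABCB1, the drug efflux pump P-glycoprotein, with 607.9, 742.1, 480.0, 435.2, 318.8 and 627.5 from 3 AM to 11 PM. It was lowest at 7 PM and highest at 7 AM, like HLF (log2 0.98 ± 0.33, SE, peak 4.95 h, unadjusted p = 0.0515). POR, the electron donor of microsomal P450 enzymes, peaked at 23.6 h (1.35 ± 0.46, unadjusted p = 0.0562), and PPARA, a nuclear receptor of fatty acid use, at 23.5 h (0.70 ± 0.31, unadjusted p = 0.148). ALAS1, which starts haem synthesis, was lowest at 7 PM (2916.1) and highest at 11 PM (8323.8), with a fitted difference of 0.35 ± 0.52. Probe sets of CYP3A4 disagreed, at 1.20 on the one of highest mean and 0.18 on another, and both can bind related genes.

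The genes most like each member were taken as those with the highest Pearson correlation of log2 values over the 6 arrays, among 2867 probe sets with 1 gene name and at least 2-fold range, as a description with no test. Correlations over 0.9 were reached by 1.46% of these for HLF, 1.53% for TEF, 1.05% for NFIL3 and 0.558% for DBP, so with 6 arrays many genes resemble any member. For HLF the 5 closest were ALDH7A1, an aldehyde dehydrogenase (r = 0.986), PCM1, a centriolar satellite protein (0.980), NME3, a nucleoside diphosphate kinase (0.976), the histone demethylase KDM4B (0.975) and the splicing regulator PTBP1 (0.975). KDM4B had the steepest profile of these, with 998.7, 1398.1, 538.8, 288.1, 99.2 and 600.3 from 3 AM to 11 PM, highest and lowest in the same animals as HLF.

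For TEF the closest were GPD1L, a glycerol-3-phosphate dehydrogenase relative (r = 0.991), the MHC class II transactivator CIITA (0.984), the GTPase-activating protein DLC1 (0.977), the myeloid receptor TREM2 (0.971) and the translation factor EIF3A (0.971). All 5 were lowest at 7 PM and highest at 3 AM, as TEF was. For NFIL3 they were CASP10, an apoptotic caspase (r = 0.991), the adenylate kinase AK5 (0.981), the transcription factor SOX9 (0.975), the noncoding RNA LINC00216 (0.972) and the adhesion molecule ICAM1 (0.972), all highest at 3 PM and lowest at 7 AM. For DBP they were the zinc finger gene ZNF711 (r = 0.993), the ATPase AFG2B (0.972), the splicing factor RBM25 (0.970), the ATP synthase subunit ATP5PF (0.965) and the receptor gene CALCRL (0.959). All 5 had their minimum at 11 AM, with ZNF711 at 270.1 and AFG2B at 123.1 there. Shared highest and lowest animals follow from the choice by correlation and are no further evidence.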

How the data were processed

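Adrenal RNA of 6 macaques was hybridised to 6 arrays. The deposited values are 1 intensity per probe set on a linear scale; no source used here names the summary method or its software, and signal over background was not used. Human probes can read a macaque transcript more weakly, so levels of different genes were not compared. Levels did enter the level filter, the choice of 1 probe set per gene and the marker sums. Those sums add raw intensities, so bright probe sets weigh most, such as CYP17A1 (mean 33606) among cortex and CHGB (12703) among chromaffin markers. Controls (68) were left out and 22215 probe sets kept; 19065 of these name 1 gene, 1043 several and 2107 none.

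Values were converted to log2(intensity + 1). Probe sets with a mean at or above the median (log2 7.30) entered a 24-h cosine fit in limma 3.58.1 (R 4.3.3), with the moderated F test (3 residual degrees of freedom) and Benjamini-Hochberg adjustment. The exact order test compared R2 over 60 circular orders. Standard errors used limma's moderated variance, which joins the scatter of single animals about the fit with that of all probe sets tested. With this prior the F test had 7.52 degrees of freedom in total, 3 of them residual. Without moderation the SE of the log2 difference was 0.72 for HLF and 0.71 for TEF. A gene in a list was read on its single-gene probe set of highest mean. Named genes were all members, list genes past the unadjusted threshold and the 5 most similar genes per member; other list genes were named after their values were seen. The members and lists were chosen with earlier results of these data known.

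The fit was tested on simulated data. Alternatives were other probe set choices, level filters, normalizations, a pseudocount of 16, other variance priors, arrays left out and age as a covariate. Promoter motifs were not analysed here.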

Additional observations from a re-analysis of the deposited data

How the results depend on the processing

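The count past the unadjusted threshold, 604, became 398 with 1 probe set per gene, 1141 with no filter on level and 347 with the stricter filter, where other numbers of probe sets were tested; it ran between 521 and 799 without single arrays. The count past adjustment became 1 (PER2) with the stricter filter and was 0 in the other fits. TEF missed the threshold with no filter (log2 1.72, unadjusted p = 0.0804), the ordinary F test (1.72, unadjusted p = 0.198), age as a covariate (3.03) and without the 3 AM and 3 PM arrays (2.28). HLF missed it with the ordinary F test (2.20, unadjusted p = 0.119) and with age as a covariate (3.69). NFIL3 missed it with no filter (1.42, unadjusted p = 0.0706), the ordinary F test (1.42, unadjusted p = 0.15), age as a covariate (2.92) and without the 3 AM and 3 PM arrays (1.23). The peak of DBP moved by over 6 h with age as a covariate (2.16, peak 19.4 h), as did those of the dim probe sets 204755_x_at with age (2.29) and 215675_at without 3 AM and 3 PM (0.98). The cause of these changes was not tested, and in some of these fits the number of arrays or probe sets differed as well. Without single arrays the log2 difference ran between 1.36 and 2.71 for HLF, 0.89 and 2.21 for TEF, 0.84 and 1.81 for DBP, 0.88 and 1.87 for NFIL3, 0.42 and 0.61 for 204754_at and 1.75 and 4.52 for 204755_x_at. With 1 probe set per gene, HLF, TEF, NFIL3 and DBP kept their side of the unadjusted threshold. Quantile normalization, median centring, a pseudocount of 16 and the trended robust prior left the calls of the 5 tested probe sets where they were. The stricter filter did so for HLF and NFIL3, and it left out TEF, DBP and 204754_at. In the exact order test no tested probe set had a p under 0.05. The same held under quantile normalization, median centring and a pseudocount of 16, where HLF stayed at an exact p of 0.05. The spans of activator over NFIL3 moved by less than the residual SD there. With quantile normalization the lowest TEF over NFIL3 value was at 3 PM (-1.546), beside -1.538 at 7 PM. No paired analysis was possible because no animal was sampled more than once.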
